A study of Rattus norvegicus with 36 samples.

Results

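Lung RNA from 12 rats was compared after 6 weeks of inhalation, 6 of them exposed to crystalline silica and 6 to air. They were chosen by their sample titles, which name a 6-week exposure at a silica dose of 15 or 0 mg/m3, out of 36 rats in the whole series. The silica group were male CDF Fisher 344 rats, 3 months old, that breathed crystalline silica at 15 mg/m3 for 6 hours a day on 5 days a week. The air group were rats of the same strain, sex and age that breathed air for the same 6 weeks. All rats were intact animals of an inbred strain with no genetic change named in the labels, and each gave 1 lung sample that was hybridised to its own Illumina rat BeadChip. The remaining 24 rats had 3 or 12 weeks of silica or air, with an air group for each duration, and were used here to estimate the spread of each gene and to ask where the 6-week response differed. The comparison asks how the lung had responded at this intermediate duration, across all genes detected.

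Inhaled silica particles reach the alveoli, the air sacs of the lung, where alveolar macrophages take them up. Particles that damage the lysosome of these cells set off inflammasome and NF-kB signalling, and the cytokines and chemokines that follow draw neutrophils and monocytes into the air space. Long exposure is known for lipid and protein build-up from type II pneumocytes, the cells that make surfactant, and for scarring known as silicosis.

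The 12 arrays had a mean raw intensity of 345 to 427 and a median of 55 to 66.7, and 50.2% to 52.0% of probes were detected on an array. A gene was tested when its probe had a detection p under 0.05 on at least 6 of the 36 arrays, which left 9078 genes. Levels below are log2 normalised intensities, changes are silica minus air on the log2 scale with the fitted standard error (SE), and n was 6 rats in each group. Each adjusted p comes from limma with Benjamini-Hochberg adjustment over the 9078 genes, and a gene was called when it lay under 0.05. The first principal component of the 12 arrays held 36.8% of the variance and placed all silica rats, at -15.1 to -5.15, apart from all air rats, at 5.42 to 13.6. Among all 36 arrays, both 6-week groups stood together at one end of the first component (silica 22.7 to 27.1, air 24.3 to 29.8) while the arrays of the other weeks ran from -25.0 to 15.1. Exposure time and array batch cannot be told apart for that difference, and the labels name no chip, but silica and air were compared within the 6-week set. The labels number the rats separately, so the p-values measure the spread between rats. In whole lung RNA, fewer cells of a type and less RNA per cell cannot be told apart.

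After 6 weeks of silica 799 genes were higher and 772 lower, or 8.8% and 8.5% of the genes tested. Few of the falls were large: 117 genes (1.29%) rose by 1.5-fold or more, whereas 15 genes (0.165%) fell by that much. The 6 silica rats all lay above the 6 air rats in 442 of the genes called higher (4.87% of all tested) and all below them in 354 of those called lower (3.9%). Counted without regard to the test, the groups did not overlap in 891 genes (9.81%). The median change over all tested genes was -0.02. Median scaling in place of quantile normalisation called 487 genes higher and 205 lower, so that 70.4% of the called genes were higher under it and 50.9% in the counts above. The size of a change in a dim gene depended on the background: of the 159 called genes named here, 51 had a log2 change smaller by over 1.5 times when all probes set the background, and 55 had one in the authors' deposited log2 values.

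**Figure D1:**
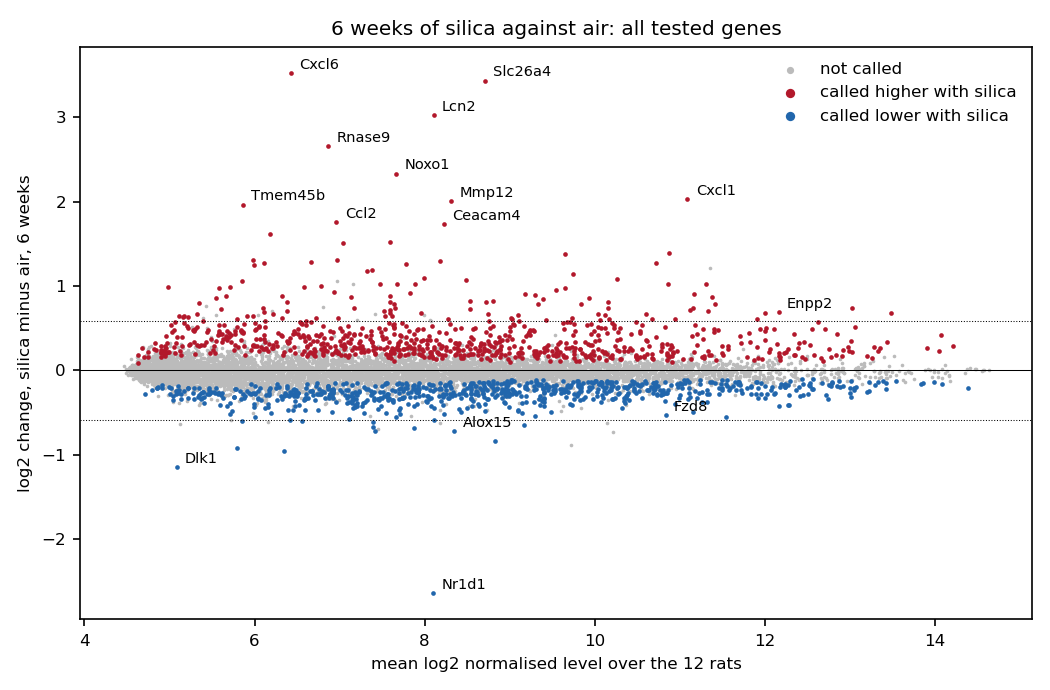
Log2 change of each of the 9078 tested genes after 6 weeks of silica (vertical axis, silica minus air) against its mean log2 normalised level over the 12 rats (horizontal axis). Red points were called higher with silica, blue points lower and grey points were not called, the dotted lines mark 1.5-fold, and the points above the upper line outnumber those below the lower one, with 117 genes called against 15.

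Chemokines that attract neutrophils were among the largest rises. Cxcl6, one of them, was detected on 6 of 6 silica arrays, against 0 of 6 air arrays. With the background used here its level was higher by at least 11.2-fold, while the fitted log2 change ran from 1.07 to 3.62 over all alternatives (adjusted p = 9.21e-16). The lowest, median and highest log2 levels of Cxcl6 were 7.73, 8.09 and 8.77 in silica rats, against 4.56, 4.67 and 4.77 in air rats, where every level was below background. No silica rat came near the air range. Cxcl1, the rat neutrophil chemoattractant also known as CINC, had log2 levels of 11.93, 12.09 and 12.36 in silica rats (lowest, median, highest), against 9.73, 9.98 and 10.59 in air rats. Cxcl1 rose 4.10-fold (2.03 ± 0.20, adjusted p = 2.85e-09), and the lowest silica rat exceeded the highest air rat by more than the whole air range. Cxcl2, a further neutrophil attractant, had levels of 6.86, 6.94 and 7.20 in silica rats, against 5.00, 5.30 and 5.95 in air rats, a rise of 3.06-fold (1.62 ± 0.18, adjusted p = 3.12e-08). Over the alternatives its log2 change ran from 0.30, with the background from all probes, to 1.73, and it was called in each. The groups of Cxcl2 did not overlap, and the silica rats lay closer together than the air rats.

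Of the 13 CXC chemokines tested, 9 rose, none fell and 4 were not called, with a median change of 0.41. Pf4, the platelet factor also made by macrophages, rose by 1.02 ± 0.12, Cxcl9, an attractant of T cells, by 0.62 ± 0.13 and Cxcl3, a neutrophil attractant, by 0.34 ± 0.06, each without overlap of the groups. The mucosal chemokine Cxcl17 rose by 0.41 ± 0.07 with some overlap. Cxcl12, which retains cells in tissues, changed by -0.11 ± 0.08 and was not called.

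Several called chemokines held the same promoter motif, and the sequences are shown because 9 of the 13 CXC chemokines rose. RefSeq promoters of the GRCr8 assembly, from 250 bases before to 50 bases after the start of transcription, were matched to 7513 of the 9078 tested genes by gene identifier. The first listed start of each gene was used. The NF-kB motif searched was GGG, then 3 bases of any kind, then TTCC, on both strands, and it was found in 4 of the 7 called CXC chemokines with a promoter there (57.1%), against 6.4% of all 7513 promoters. It was found in 14.9% of the promoters of genes higher by 1.5-fold or more (13 of 87), in 9.32% of all called higher and in 7.7% of those called lower. CXC chemokines that were not called were not counted. The stretches below run 5′ to 3′ on the strand of the gene, and the capitals mark matches on either strand, which overlap in Cxcl6 and in the second block of Cxcl1.
Cxcl6 (chr14:17596465-17596535, minus strand): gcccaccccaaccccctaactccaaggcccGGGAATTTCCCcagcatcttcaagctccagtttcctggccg
Cxcl1 (chr14:17479365-17479453, minus strand): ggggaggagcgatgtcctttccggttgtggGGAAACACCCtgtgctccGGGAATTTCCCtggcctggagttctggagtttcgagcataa
Cxcl2 (chr14:17467270-17467359, minus strand): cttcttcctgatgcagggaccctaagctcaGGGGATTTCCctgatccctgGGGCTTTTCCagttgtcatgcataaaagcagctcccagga
Nfkbiz (chr11:58251678-58251720, plus strand): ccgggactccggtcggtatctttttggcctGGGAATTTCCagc
The matches began 88 and 87 bases before the start in Cxcl6, at 102, 84 and 83 bases in Cxcl1, at 74 and 54 bases in Cxcl2 and at 13 bases in Nfkbiz, a regulator of NF-kB described below. A match is a description of these letters and not a measured binding site.

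Of 18 CC chemokines, which mainly draw monocytes and lymphocytes, 8 rose, 1 fell and 9 were not called (median change 0.28). Ccl2, the main monocyte attractant, had log2 levels of 7.13, 7.86 and 8.31 in silica rats, against 5.50, 6.10 and 6.79 in air rats, and rose 3.39-fold (1.76 ± 0.23, adjusted p = 4.43e-07). Every silica rat lay above every air rat for Ccl2, whose log2 change was 0.64 with the background from all probes. Ccl3, a macrophage inflammatory protein, rose by 1.19 ± 0.14, fractalkine, Cx3cl1, by 0.79 ± 0.10 and Ccl17, an attractant of helper T cells, by 0.73 ± 0.11. With the background from all probes the log2 changes were 0.57 for Ccl3, 0.82 for Cx3cl1 and 0.13 for Ccl17. The exception was Ccl5, an attractant of T cells that T and NK cells themselves make, with levels of 11.78, 12.08 and 12.28 in silica rats, against 12.38, 12.49 and 12.57 in air rats. Ccl5 fell (-0.41 ± 0.09, adjusted p = 0.000988) and its groups did not overlap.

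Of 14 chemokine receptors 4 rose, 1 fell and 9 were not called (median 0.03). Cxcr1, a receptor of neutrophil chemokines, rose by 0.56 ± 0.13 and Ccr1, a receptor of Ccl3, by 0.47 ± 0.09, both with overlapping groups. Xcr1, which marks cross-presenting dendritic cells, rose by 0.39 ± 0.08 without overlap. Its log2 change was 0.04 with the background from all probes. The receptor of Ccl2, Ccr2, changed by -0.10 ± 0.08 and was not called. Some neutrophil markers also rose. Of the 11 tested, 4 rose (Il1r2, S100a8, Cxcr1 and Cxcr2), none fell and 7 were not called. Cxcr1 and Cxcr2 are also counted among the chemokine receptors above. The call of Cxcr2 was lost without silica replicate 1 or 6 or air replicate 5. The summed linear level of the neutrophil markers ran from 2703 to 3332 in silica rats and from 1664 to 2156 in air rats. S100a9, Mpo, Elane, Ltf and Fpr1, which also define neutrophils, were not detected on any of the 12 arrays. The part of these markers in the chemokine result was not tested.

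The largest rise of a gene detected in every rat was that of Slc26a4, which encodes pendrin, an anion exchanger of airway epithelium. Its log2 levels were 9.86, 10.40 and 10.90 in silica rats, against 6.05, 6.95 and 8.10 in air rats, a rise of 10.8-fold (3.44 ± 0.32, adjusted p = 9.67e-10). The air rats spread more widely than the silica rats, yet the groups stayed apart. Most other genes of its list were not called: of 12 genes of epithelial anion transport and peroxidase defence, 2 rose, 2 fell and 8 were not called (median 0.03). The chloride channel gene Ano1 fell by 0.29 on the log2 scale (SE 0.08), and Slc26a3, a related anion exchanger detected on 3 of 6 silica arrays, against 6 of 6 air arrays, fell by 0.35 (SE 0.10). With the background from all probes both log2 changes were -0.03, still called.

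Secreted defence proteins rose in 10 of 20 tested genes, with none lower and 10 not called (median 0.30). Lcn2, which withholds iron from bacteria by binding their siderophores, had levels of 9.36, 9.57 and 10.07 in silica rats, against 6.18, 6.42 and 7.65 in air rats, and rose 8.14-fold (3.03 ± 0.27, adjusted p = 2.29e-10). One air rat, at 7.65, stood above the other air rats for Lcn2 but below all silica rats. Rnase9, a gene of the ribonuclease A family, had levels of 7.84, 8.23 and 8.44 in silica rats, against 5.23, 5.51 and 5.84 in air rats (2.66 ± 0.10, adjusted p = 1.67e-20). Its log2 change was 0.97 with the background from all probes. Chi3l1, a chitinase-like protein of macrophages and epithelium, rose by 1.02 ± 0.12, haptoglobin, Hp, by 0.81 ± 0.12 and S100a8, a subunit of neutrophil calprotectin, by 0.74 ± 0.14. Pigr, the receptor that carries IgA across epithelium, rose by 0.58 ± 0.11 without overlap. Retnla, a resistin-like protein of alternatively activated macrophages, rose by 1.40 ± 0.25, but the highest air rat, at 11.24, exceeded the lowest silica rat, at 11.04.

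Other large rises had no overlap between the groups. They included Tmem45b (1.97 ± 0.11, detected on 6 of 6 silica arrays, against 3 of 6 air arrays), Ceacam4 of the carcinoembryonic antigen family (1.73 ± 0.08), Slc13a2, a carrier of dicarboxylates such as succinate (1.52 ± 0.13), and C4bpa, an inhibitor of complement (1.37 ± 0.12). Rab7b, a small GTPase of endosomes, rose by 1.28 ± 0.13 and Ch25h, which makes 25-hydroxycholesterol, by 1.27 ± 0.14. Degs2, an enzyme of sphingolipid synthesis, rose by 1.27 ± 0.14, Rgs1, a regulator of G-protein signalling in leukocytes, by 1.25 ± 0.15, and Chst1, a sulfotransferase of keratan sulfate, by 1.15 ± 0.06. With the background from all probes the log2 changes were 0.31 for Tmem45b, 0.34 for Rab7b, 0.24 for Degs2 and 0.21 for Rgs1, each still called. They were 0.86 for Slc13a2 and 0.80 for Ch25h.

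**Figure D2:**
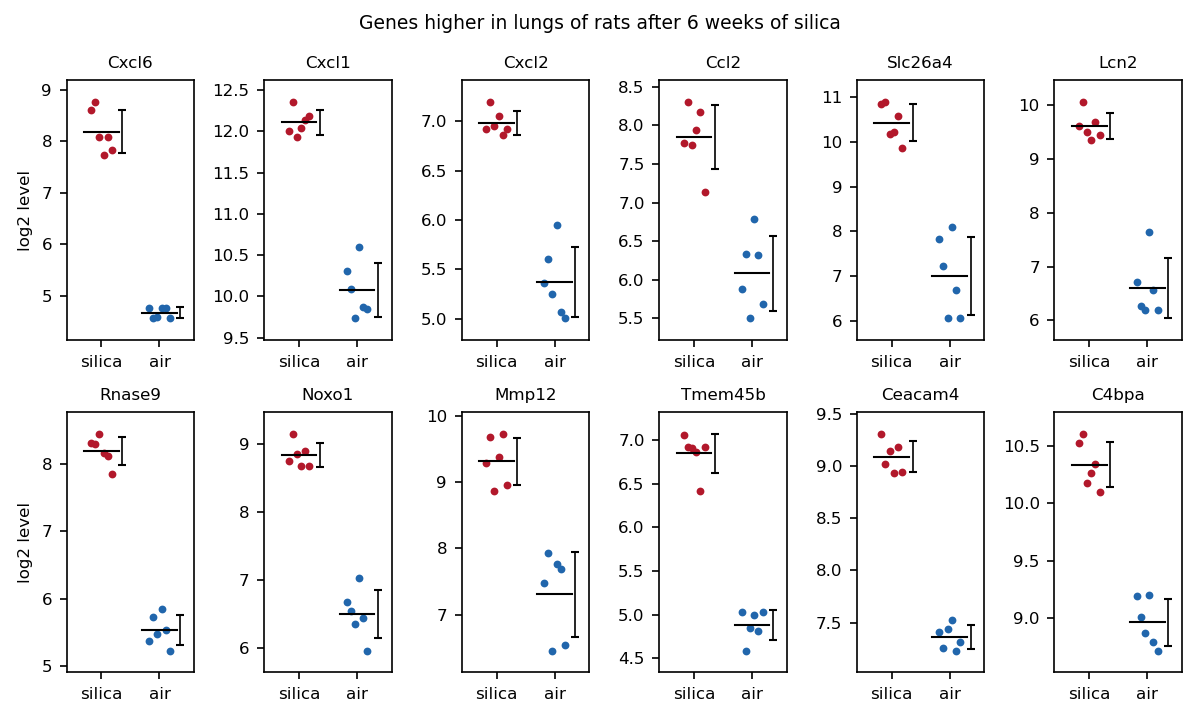
Log2 normalised level of 12 genes in each rat after 6 weeks of silica (red, left) or air (blue, right). Points are rats, the line is the group mean and the bar beside it the SD (n = 6), and in each panel all silica rats lie above all air rats.

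Complement genes included 9 higher, none lower and 12 not called among 21 tested (median 0.12). All tested chains of C1q, which starts the classical pathway, were among them, with C1qa at 0.59 ± 0.09 and C1qb at 0.54 ± 0.10. Cfb, factor B of the alternative pathway, rose by 0.51 ± 0.06, with levels of 13.17, 13.34 and 13.43 in silica rats, against 12.73, 12.81 and 12.88 in air rats.

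Of 21 cytokines and growth factors of inflammation 8 rose, 2 fell and 11 were not called (median 0.12). Il1a, an alarm cytokine released by damaged cells, had levels of 7.61, 7.86 and 8.09 in silica rats, against 7.05, 7.19 and 7.45 in air rats (0.65 ± 0.09, adjusted p = 1.88e-06). Il18, which the inflammasome processes, rose by 0.59 ± 0.10 without overlap, and Il1b, its partner, by 0.47 ± 0.12 with overlap. Ltb, the lymphotoxin subunit that organises lymphoid tissue, rose by 0.78 ± 0.10. Csf2, the growth factor GM-CSF, which alveolar macrophages need to clear surfactant, rose by 0.67 ± 0.09, and Ereg, a ligand of the EGF receptor, by 0.48 ± 0.12. With the background from all probes the log2 changes were 0.07 for Csf2, 0.05 for Ereg and 0.34 for Il1a, each still called. Tnf was detected on 1 of 6 silica arrays, against 0 of 6 air arrays, so no fold is given, and Il6, Il10 and Csf3 were not detected on any of the 12 arrays. Il33, an alarm cytokine of epithelium, fell by 0.17 on the log2 scale (SE 0.05), with levels of 10.25, 10.32 and 10.47 in silica rats, against 10.45, 10.50 and 10.55 in air rats. The deposited detection p marked Il33 as detected on 0 of 6 silica arrays, against 1 of 6 air arrays in spite of these bright levels, so for this probe that p-value does not follow the signal, and the call was lost under median scaling. Of 13 cytokine receptors 2 rose, 1 fell and 10 were not called (median -0.06). Il1r2, a decoy receptor for IL-1, rose by 1.18 ± 0.14, with levels of 7.67, 7.78 and 8.40 in silica rats, against 6.49, 6.73 and 6.99 in air rats. Its log2 change was 0.55 with the background from all probes.

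Regulators of NF-kB rose in 10 of 24 genes and fell in none, with 14 not called (median 0.11). Nfkbiz, an inducible nuclear cofactor of NF-kB, had levels of 5.33, 5.47 and 5.73 in silica rats, against 4.61, 4.85 and 5.01 in air rats, and was detected on 6 of 6 silica arrays, against 3 of 6 air arrays (0.64 ± 0.07, adjusted p = 4.43e-08). The kinase gene Ikbke rose by 0.64 ± 0.10, Birc3, an inhibitor of apoptosis, by 0.45 ± 0.11 and Tlr2, a receptor of bacterial lipoproteins, by 0.33 ± 0.06. Groups did not overlap in any of these. Tnfaip2, a gene induced by TNF, was detected on 6 of 6 silica arrays, against 0 of 6 air arrays. With the background used here its bound was 1.44-fold (adjusted p = 6.98e-07). This bound lay near the fitted log2 change of 0.54, so a smaller fold is possible. With the background from all probes the log2 changes were 0.05 for Tnfaip2, 0.06 for Nfkbiz, 0.36 for Ikbke, 0.15 for Birc3 and 0.35 for Tlr2. Nfkbia, the inhibitor that NF-kB itself induces, changed by -0.01 ± 0.08. Under median scaling 5 of the 24 rose.

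Oxidant-producing and nitric oxide genes included 8 higher, 1 lower and 6 not called among 15 tested (median 0.30). Noxo1, an organiser subunit of NADPH oxidase, had levels of 8.67, 8.80 and 9.14 in silica rats, against 5.96, 6.49 and 7.03 in air rats, and rose 5.04-fold (2.33 ± 0.17, adjusted p = 1.41e-12). For Noxo1 the log2 change was 1.43 with the background from all probes. Cyba, the membrane subunit p22phox, rose by 0.44 ± 0.06, and Gch1, which makes the cofactor of nitric oxide synthases, by 0.58 ± 0.11. Arg1, an arginase that uses up arginine, rose by 0.90 ± 0.09 while Ass1, which helps to regenerate arginine, fell. Ass1 levels were 8.02, 8.21 and 8.27 in silica rats, against 8.57, 8.69 and 8.73 in air rats (-0.50 ± 0.08, adjusted p = 3.92e-05), with no overlap. The inducible synthase Nos2 was not detected on any of the 12 arrays.

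Antioxidant genes moved unevenly, with 9 of 30 higher, 2 lower and 19 not called (median 0.05). Sod2, the mitochondrial superoxide dismutase, had levels of 10.64, 10.77 and 11.03 in silica rats, against 9.57, 9.72 and 9.85 in air rats (1.08 ± 0.10, adjusted p = 3.97e-10). The metal-binding Mt1 rose by 0.86 ± 0.08, Hmox1, which degrades heme, by 0.79 ± 0.10 and the peroxiredoxin gene Prdx5 by 0.61 ± 0.09, all without overlap. Among the members that were not called, Nqo1 changed by 0.01 ± 0.05, Gclc by 0.01 ± 0.05 and Gclm by 0.01 ± 0.05, all targets of the stress factor NRF2. Prdx6, an abundant peroxiredoxin of lung, fell by 0.15 on the log2 scale (SE 0.04), a call lost under median scaling. The core of the antioxidant response element, searched as TGACNNNGC on both strands, was found in 4 of the 7 called-higher members with a promoter (57.1%), against 14.6% of all promoters. Over all genes called higher the share was 14.4%, and over all called lower 13.2%. Members of the list that were not called were not counted. The Mt1 promoter is printed as the example of that motif because Mt1 rose in all silica rats, and the capitals mark the match, which began 101 bases before the start.
Mt1 (GRCr8, chr19:10833038-10833106, minus strand): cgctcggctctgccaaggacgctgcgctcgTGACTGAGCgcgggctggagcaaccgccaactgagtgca

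Genes of alveolar macrophages included 9 higher, 1 lower and 4 not called among 14 tested (median 0.64, against -0.02 over all genes). Mmp12, the macrophage metalloelastase, had levels of 8.87, 9.33 and 9.73 in silica rats, against 6.46, 7.58 and 7.93 in air rats, and rose 4.01-fold (2.0 ± 0.29, adjusted p = 4.76e-06). Atp6v0d2, a macrophage subunit of the proton pump that acidifies lysosomes, rose by 1.51 ± 0.18, Trem2, a lipid receptor, by 0.87 ± 0.13 and Plet1 by 0.74 ± 0.08. Each of these genes had separate groups. With the background from all probes the log2 changes were 0.56 for Atp6v0d2, 0.91 for Trem2 and 0.75 for Plet1. Mrc1, the mannose receptor, rose by 0.53 ± 0.11 with overlap, as did Pparg, the regulator of lipid handling in these cells, by 0.47 ± 0.11. The member that fell was Car4 (-0.27 ± 0.06, a call lost under median scaling), which is also listed as an endothelial marker. The summed linear level of the macrophage markers ran from 22970 to 28040 in silica rats and from 14550 to 18980 in air rats, and Marco was not detected. Of 15 markers of monocytes and dendritic cells 5 rose and none fell (median 0.09). Cd83, a marker of activated dendritic cells, rose by 0.52 ± 0.05, and Ly6c, a monocyte surface protein, by 0.71 ± 0.08.

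Lysosomal genes included 21 higher, 1 lower and 13 not called among 35 tested (median 0.21). Beside Atp6v0d2, the bone and macrophage cathepsin gene Ctsk rose by 0.98 ± 0.19 with overlapping groups. Lgmn, an endopeptidase of antigen processing, rose by 0.61 ± 0.08, with levels of 10.33, 10.48 and 10.61 in silica rats, against 9.76, 9.85 and 10.06 in air rats. Hexa, which degrades gangliosides, rose by 0.43 ± 0.06 and Gaa, which degrades glycogen, by 0.61 ± 0.11. With the background from all probes the log2 changes were 0.48 for Hexa and 0.08 for Gaa. Genes of MHC class II antigen presentation included 10 higher, 1 lower and 4 not called among 15 tested (median 0.43). Ifi30, a thiol reductase that unfolds antigens, had levels of 10.79, 10.97 and 11.14 in silica rats, against 10.30, 10.37 and 10.47 in air rats (0.60 ± 0.05, adjusted p = 3.39e-10). The peptide-loading chain gene RT1-DMa rose by 0.57 ± 0.08, the class II chain gene RT1-Ba by 0.53 ± 0.07 and the invariant chain gene Cd74 by 0.48 ± 0.08, while their common activator Ciita rose by 0.45 ± 0.08 with overlap. The log2 change of Ciita was 0.06 with the background from all probes, still called. Those of RT1-DMa, RT1-Ba and Cd74 were 0.65, 0.57 and 0.50. RT1 genes are close relatives of each other, and cross-hybridisation among them was not tested. The macrophage and dendritic cell markers above moved with the lysosomal and class II genes, and their part in this result was not tested.

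Surfactant and lamellar body genes included 10 higher, 1 lower and 7 not called among 18 tested (median 0.17). Sftpa1, the collectin of surfactant, rose by 0.29 ± 0.05 without overlap (adjusted p = 2.55e-05). Lamp3, a membrane protein of lamellar bodies, rose by 0.45 ± 0.08, Pla2g1b, a secreted phospholipase, by 0.53 ± 0.09 and the collectin gene Sftpd by 0.46 ± 0.14. Sftpb, the hydrophobic surfactant protein, changed by -0.01 ± 0.05. Markers of type II pneumocytes, several of which are the same genes, rose in 8 of 11 with none lower (median 0.26). Their summed linear level ran from 80090 to 88200 in silica rats and from 68450 to 74900 in air rats, with Pgc not detected. Muc1, a membrane mucin, rose by 0.58 ± 0.08. It was the 1 gene that rose among 17 keratins and repair genes, of which Krt8 fell by 0.15 on the log2 scale (SE 0.04, a call lost under median scaling) and 15 were not called (median -0.01).

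Lipid synthesis and export genes rose in 15 of 27 and none fell (median 0.26). The cholesterol exporter genes Abcg1 and Abca1 rose by 0.49 ± 0.07 and 0.39 ± 0.07 with the groups apart. They were at 0.51 and 0.25 with the background from all probes. Abcg1 levels were 11.97, 12.19 and 12.40 in silica rats, against 11.47, 11.71 and 11.90 in air rats. Fdps, an enzyme of isoprenoid synthesis, rose by 0.46 ± 0.07 and Scd, the stearoyl-CoA desaturase, by 0.49 ± 0.12. Scd overlapped between the groups, as did Srebf1, a lipogenic transcription factor (0.35 ± 0.09). Under median scaling 9 of the 27 rose. Of 5 tested adipose tissue markers 3 rose and none fell (Cidea, Lpl and Cfd, the last not under median scaling), with a summed linear level of 11500 to 13250 in silica rats and 9958 to 12520 in air rats. Ucp1, Lep and Retn were not detected, and the part of adipose RNA in the lipid result was not tested.

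Cell cycle genes rose in 13 of 40 and none fell (median 0.12). Rrm2, a subunit of ribonucleotide reductase, had levels of 7.44, 7.48 and 7.85 in silica rats, against 6.44, 6.88 and 7.04 in air rats (0.74 ± 0.10, adjusted p = 1.13e-06). The mitotic genes Cks2 (0.73 ± 0.12), Ccnb2 (0.61 ± 0.09) and Cdk1 (0.53 ± 0.10) rose without overlap, whereas the replication helicase gene Mcm2 changed by 0.02 ± 0.06. When all probes set the background the log2 changes were 0.29 for Rrm2, 0.43 for Cks2, 0.52 for Ccnb2 and 0.33 for Cdk1. Pola2, a subunit of DNA polymerase alpha that was outside this list, fell (-0.49 ± 0.06), with levels of 10.80, 10.87 and 11.08 in silica rats, against 11.32, 11.41 and 11.49 in air rats. Chaperones and genes of the unfolded protein response included 12 higher, 1 lower and 16 not called among 29 tested (median 0.13), and in 5 under median scaling. Dnaja1, a cochaperone of HSP70, rose by 0.36 ± 0.05, and Xbp1, a transcription factor of secretory cells, by 0.21 ± 0.05. The small heat shock protein gene Hspb1 fell by 0.27 on the log2 scale (SE 0.05), which was not called under median scaling.

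Among collagens and matrix proteins 1 of 36 rose, 9 fell and 26 were not called (median -0.13). The main fibrillar collagens Col1a1 (0.05 ± 0.10) and Col3a1 (0.02 ± 0.10), fibronectin, Fn1 (-0.04 ± 0.08) and elastin, Eln (-0.03 ± 0.12) were not called. Col15a1, a collagen of vascular basement membranes, fell by 0.51 on the log2 scale (SE 0.10) with overlap. The transmembrane collagen gene Col13a1 had levels of 7.39, 7.55 and 7.69 in silica rats, against 7.71, 7.91 and 8.01 in air rats (-0.34 ± 0.06, adjusted p = 0.00018). Under median scaling 3 of the 9 falls were called. Spp1, osteopontin, a matrix protein of activated macrophages, ranged from 6.34 to 9.02 in silica rats and from 5.16 to 7.94 in air rats and was not called (1.06 ± 0.40, adjusted p = 0.0669). Spp1 was called with array weights, with the replicate block, and without air replicate 2, air replicate 4 or silica replicate 6. Of 29 matrix proteases and inhibitors 5 rose, 2 fell and 22 were not called (median -0.02). After Mmp12 and Ctsk the membrane protease gene Mmp14 rose by 0.28 ± 0.08, the plasminogen activator gene Plau fell by 0.33 on the log2 scale (SE 0.07), and Timp1, an inhibitor often raised in scarring, changed by -0.03 ± 0.07. Plau was at -0.08 with the background from all probes, still called, and Mmp14 at 0.30.

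**Figure D3:**
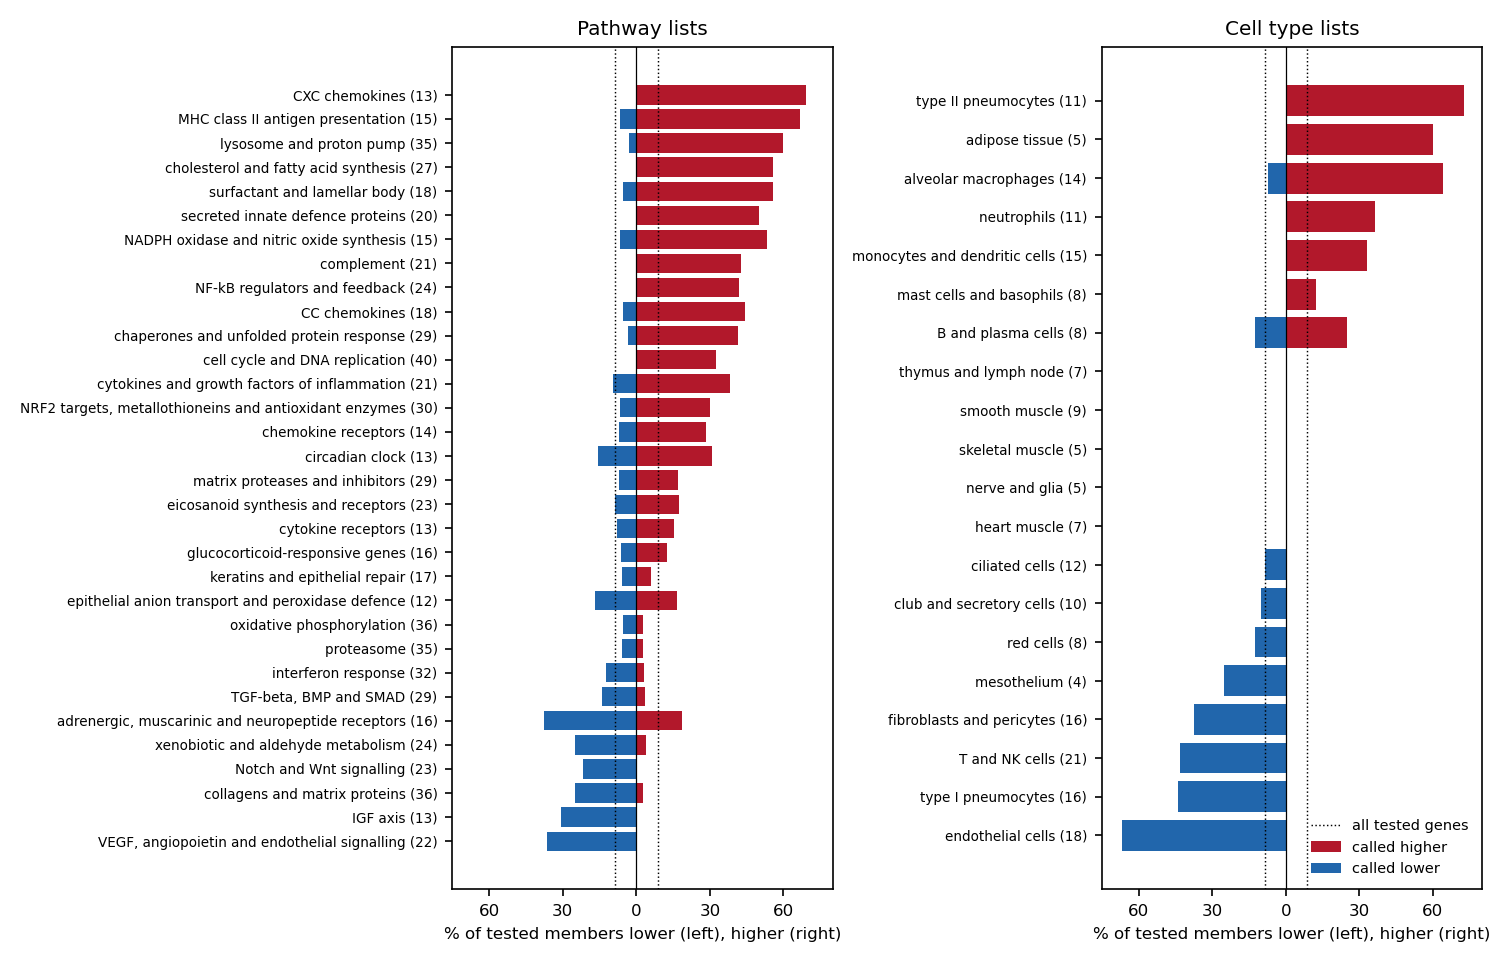
Share of the tested members of each gene list that was called higher (red, to the right) or lower (blue, to the left) after 6 weeks of silica, for 32 pathway lists and 20 cell type lists, with the number of tested members in brackets. The dotted lines mark the shares over all tested genes, 8.8% higher and 8.5% lower, and the endothelial list reaches farthest to the left, with 12 of 18 markers lower.

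Of 18 tested endothelial markers 12 fell, none rose and 6 were not called (median -0.25). Emcn, endomucin of capillary and venous endothelium, had levels of 11.93, 12.04 and 12.25 in silica rats, against 12.34, 12.45 and 12.61 in air rats (-0.41 ± 0.05, adjusted p = 2.57e-07). Vwf, von Willebrand factor, had levels of 11.55, 11.75 and 11.98 in silica rats, against 12.02, 12.08 and 12.15 in air rats (-0.33 ± 0.07). The summed linear level of the endothelial markers ran from 56130 to 61900 in silica rats and from 67420 to 73870 in air rats, so these sums did not overlap. In the list of VEGF, angiopoietin and endothelial signalling 8 of 22 genes fell, none rose and 14 were not called (median -0.20). Ace, the angiotensin-converting enzyme of lung capillaries, fell (-0.39 ± 0.07), as did Angpt2, an antagonist ligand of the receptor Tie2 (-0.49 ± 0.08), and the peptide hormone gene Apln (-0.33 ± 0.07). Angpt2 was at -0.15 with the background from all probes, still called, against -0.41 for Ace and -0.37 for Apln. Vegfa, the growth factor of endothelium, changed by -0.35 ± 0.15 and was not called (adjusted p = 0.121), although its silica rats lay below its air rats, and it was called when the 12 arrays alone were fitted or with array weights. Under median scaling 4 endothelial markers and 5 genes of the signalling list fell, and the calls of Tie1 and Apln were among those lost.

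Of the markers of type I pneumocytes, the flat cells of the gas exchange surface, 7 of 16 were lower, none was higher and 9 were not called (median -0.19). The receptor gene Ager fell by 0.20 on the log2 scale (SE 0.04) and Clic5 by 0.21 (SE 0.05), both without overlap, and neither call held under median scaling, where 2 of the 16 fell. The summed linear level was 38150 to 40880 in silica rats and 41760 to 45190 in air rats. Fibroblast and pericyte markers fell in 6 of 16 and rose in none (median -0.16). The pericyte marker Cspg4 fell by 0.39 on the log2 scale (SE 0.08) with overlap, and 1 of the 16 fell under median scaling. The fibroblast sums were 41030 to 43690 in silica rats and 43810 to 47610 in air rats. None of 9 tested smooth muscle markers was called (median -0.03). For 10 club cell and 12 ciliated cell markers, 1 each fell and none rose (medians 0.00 and 0.02). The club cell protein Scgb1a1 changed by 0.02 ± 0.04. The part of these cell markers in the falls of signalling genes was not tested.

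Markers of T and NK cells fell in 9 of 21 and rose in none (median -0.25). Gzma, a granzyme of cytotoxic cells, had levels of 10.05, 10.20 and 10.42 in silica rats, against 10.45, 10.55 and 10.78 in air rats (-0.35 ± 0.08, adjusted p = 0.00119). Cd8a, the coreceptor of cytotoxic T cells, fell by 0.36 on the log2 scale (SE 0.09). Lag3, an inhibitory receptor of T cells that is outside the list, fell by 0.50 on the log2 scale (SE 0.14). Lag3 lost its call under median scaling and with the background taken from all probes. The summed linear level of the T and NK markers ran from 6498 to 8879 in silica rats and from 8806 to 10670 in air rats, with Cd5 and Foxp3 not detected, and 4 of the 21 fell under median scaling. Ccl5, which these cells make, fell with them, and the part of these cells in that fall was not tested. Of 8 markers of B and plasma cells 2 rose and 1, the B cell gene Ms4a1, fell (-0.59 ± 0.14, and -0.13 with the background from all probes). The single call among 8 mast cell and basophil markers was a rise of Hdc, the histamine-forming enzyme (0.49 ± 0.12).

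Of 32 interferon response genes 1 rose, 4 fell and 27 were not called (median -0.12), and 9 fell when the 12 arrays alone were fitted. Mx2, an antiviral GTPase closely related to Mx1, had levels of 8.04, 8.55 and 8.74 in silica rats, against 8.78, 8.96 and 9.16 in air rats (-0.48 ± 0.14, adjusted p = 0.0109). The guanylate-binding protein gene Gbp5 fell by 0.47 on the log2 scale (SE 0.11), Gbp2 by 0.23 (SE 0.06) and Ifi27 by 0.18 (SE 0.04), and of these 4 genes Gbp5 alone kept its call under median scaling. The log2 change of Gbp5 was -0.10 with the background from all probes, still called. The interferon-stimulated response element, searched as a pair of GAAA blocks with 2 bases of any kind between them, on both strands, was found in 3 of the 3 called-lower members with a promoter, against 3.01% of all promoters. Over all genes called lower the share was 3.69%, and over all called higher 3.32%. Interferon genes that were not called were not counted. The Ifi27 stretch is printed as the example with a pair of matches, which the capitals mark and which began 169 and 84 bases before the start.
Ifi27 (GRCr8, chr6:128355113-128355267, plus strand): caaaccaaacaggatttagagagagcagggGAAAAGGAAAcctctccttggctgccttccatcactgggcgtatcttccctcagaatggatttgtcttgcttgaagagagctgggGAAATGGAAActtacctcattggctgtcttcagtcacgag

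Several developmental signalling genes fell. In the Notch and Wnt list 5 of 23 fell and none rose (median -0.17). Dlk1, which resembles Notch ligands, was detected on 0 of 6 silica arrays, against 6 of 6 air arrays. With the background used here it was lower by at least 2.0-fold (adjusted p = 5.37e-08), and its fitted log2 change ran from -1.28 to -0.12 over the alternatives, called in each. The Notch target Hes1 had levels of 8.33, 8.54 and 8.62 in silica rats, against 8.83, 8.86 and 9.09 in air rats (-0.40 ± 0.08). Wif1, an inhibitor of Wnt ligands, fell by 0.38 on the log2 scale (SE 0.08), and the Wnt receptor gene Fzd8, outside the list, by 0.53 (SE 0.09). The IGF axis had 4 of 13 lower and none higher (median -0.17). Its binding protein genes Igfbpl1 (-0.69 ± 0.08) and Igfbp2 (-0.54 ± 0.12) fell without overlap. Igfbpl1 levels were 7.32, 7.54 and 7.79 in silica rats, against 8.09, 8.22 and 8.31 in air rats. Under median scaling 2 of the 13 fell. In the TGF-beta, BMP and SMAD list 1 of 29 rose and 4 fell, with 24 not called (median -0.08), and under median scaling none of the 4 falls was called. The endothelial receptor gene Acvrl1 had the largest of these falls (-0.29 ± 0.08).

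Adrenergic, muscarinic and neuropeptide receptors moved both ways, with 3 of 16 higher, 6 lower and 7 not called (median -0.07). Adra1b, an alpha-adrenergic receptor, had levels of 7.69, 7.78 and 7.98 in silica rats, against 8.21, 8.42 and 8.60 in air rats (-0.59 ± 0.09, adjusted p = 4.06e-06). Adenosine receptors split: Adora3 rose by 0.55 ± 0.08 and Adora2b by 0.35 ± 0.09 (not called when the 12 arrays alone were fitted), whereas Adora2a fell by 0.29 on the log2 scale (SE 0.07). Adora3 was at 0.13, Adora2b at 0.15 and Adora2a at -0.32 with the background from all probes, each still called. Under median scaling 2 receptors of the list fell. Among lipid mediators 4 of 23 eicosanoid genes rose, 2 fell and 17 were not called (median 0.00). Alox5ap and Lta4h, both of leukotriene synthesis, rose by 0.50 ± 0.08 and 0.30 ± 0.04 without overlap. Alox15, a lipoxygenase, had levels of 7.62, 8.0 and 8.30 in silica rats, against 8.45, 8.68 and 9.04 in air rats (-0.72 ± 0.11, adjusted p = 1.85e-05). Enpp2, autotaxin, which makes lysophosphatidic acid, had levels of 12.44, 12.51 and 12.59 in silica rats, against 11.73, 11.83 and 11.88 in air rats (0.70 ± 0.05, adjusted p = 9.41e-13). Lpar3, a receptor of that lipid, had levels of 9.16, 9.23 and 9.32 in silica rats, against 9.64, 9.70 and 9.88 in air rats (-0.50 ± 0.08, adjusted p = 1.24e-05). The groups were apart for both genes, in opposite directions.

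Of 24 genes of xenobiotic and aldehyde metabolism 1 rose, 6 fell and 17 were not called (median -0.11), with 1 fall called under median scaling. The carboxylesterase gene Ces1d rose by 0.33 ± 0.04, and the lung monooxygenase genes Cyp4b1 and Fmo1 fell by 0.30 (SE 0.06) and 0.29 (SE 0.07) on the log2 scale, the first of these a call lost under median scaling. Other falls without overlap were those of Tdrp (-0.67 ± 0.09), the G-protein regulator gene Rgs7 (-0.65 ± 0.10), Acoxl, related to acyl-CoA oxidases (-0.62 ± 0.11), and Rap1gap, which switches off the GTPase Rap1 (-0.52 ± 0.09). In that order they were at -0.31, -0.74, -0.28 and -0.45 with the background from all probes.

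The largest fall was in a clock gene. Nr1d1, which encodes the repressor REV-ERB alpha, had levels of 5.82, 6.65 and 8.31 in silica rats, against 9.0, 9.50 and 9.75 in air rats (-2.64 ± 0.33, adjusted p = 2.57e-07). The silica rats spread widely, but the highest of them stayed below the lowest air rat. Of 13 clock genes 4 rose, 2 fell and 7 were not called (median -0.01). Bmal1, which REV-ERB alpha represses, rose by 0.44 ± 0.08, the repressor gene Cry1 by 0.82 ± 0.10 and Nfil3, a repressor of the D-box, by 0.55 ± 0.09, without overlap. Tef, an activator of the D-box, fell by 0.60 on the log2 scale (SE 0.17), a call lost under median scaling. When all probes set the background the log2 changes were -0.15 for Tef and 0.16 for Bmal1, both still called. Per1 (-0.69 ± 0.28, called without air replicate 4), Per2 (0.06 ± 0.14) and Dbp (-0.04 ± 0.07) were not called. The time of day at which each lung was taken is not given in the sources used here, and its part in these values was not tested. Of 16 glucocorticoid-responsive genes 2 rose (Lcn2 and Mt1), 1 fell and 13 were not called (median -0.07). Klf9 fell by 0.55 on the log2 scale (SE 0.10) with overlap, while Fkbp5 (0.09 ± 0.09) and Tsc22d3 (-0.05 ± 0.12), both strongly induced by the hormone, were not called.

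**Figure D4:**
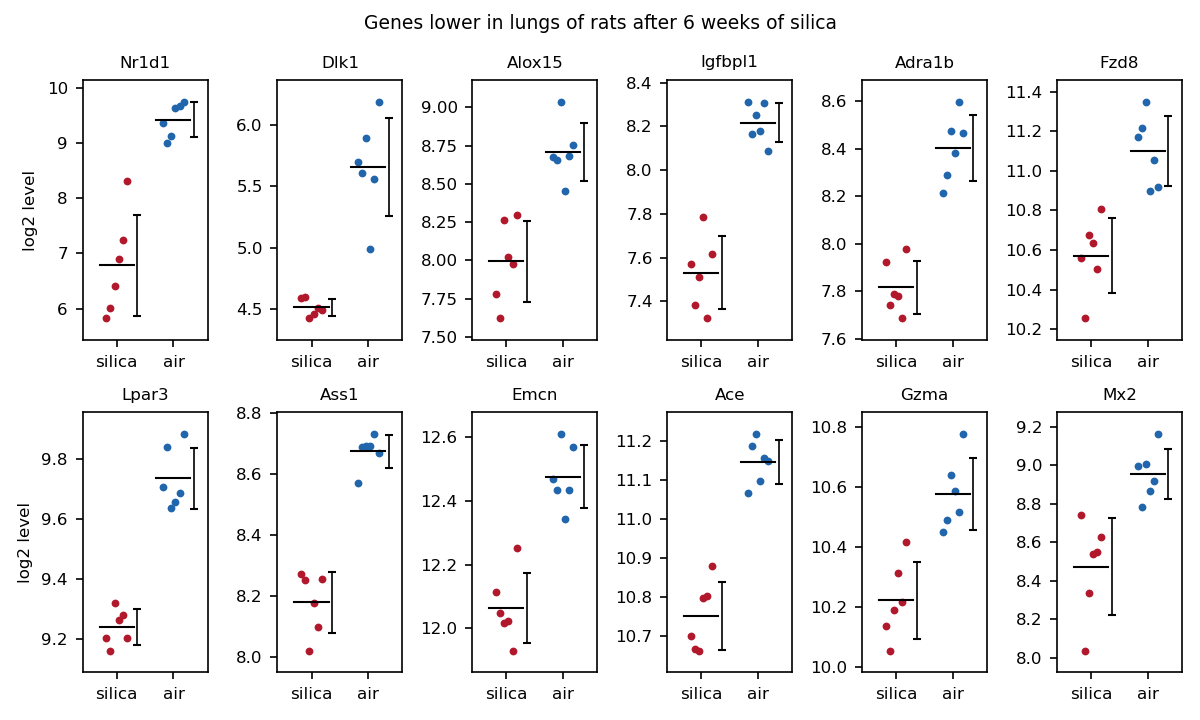
Log2 normalised level of 12 genes in each rat after 6 weeks of silica (red, left) or air (blue, right). Points are rats, the line is the group mean and the bar beside it the SD (n = 6), and in each panel all silica rats lie below all air rats.

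Housekeeping lists had few calls. Oxidative phosphorylation had 1 of 36 genes higher and 2 lower (median 0.01), with Cox5a at 0.26 ± 0.07, and the proteasome had 1 of 35 higher and 2 lower (median 0.005). Markers of tissue that may be cut out together with lung came in short lists. None of 7 heart muscle, 5 skeletal muscle, 7 thymus and lymph node or 5 nerve markers was called. Their median changes were 0.59, 0.11, -0.10 and -0.02, against -0.02 over all genes. The change was above 0 in 6 of the 7 heart muscle markers, 1 of them without overlap. Of 8 red cell markers 1 fell (12.5%, Ahsp, a call lost in 13 of 27 alternatives), as did 1 of 4 mesothelium markers (25%), against 8.5% of all genes. The latter was Upk1b (-0.92 ± 0.26, with overlap), at -0.14 with the background from all probes. The median over the mesothelium markers was -0.48. Adipose markers, of which 3 of 5 rose against 8.8% of all genes, were given above. Heart muscle RNA varied widely within both groups, with a summed linear level of 100.3 to 6981 in silica rats and 83.48 to 4232 in air rats. The atrial and pulmonary vein myosin gene Myh6 was detected on 4 of 6 silica arrays, against 4 of 6 air arrays and ran from 4.52 to 11.41 in silica rats and from 4.43 to 10.73 in air rats. The airway genes Scgb3a1 and Bpifa1 spread in the same way, from 9.66 to 13.65 and 4.69 to 11.78 in silica rats, against 7.36 to 13.70 and 4.96 to 11.43 in air rats, and neither was called. Their changes were 1.21 ± 0.95 for Scgb3a1 and -0.34 ± 1.18 for Bpifa1.

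Beyond Cxcl6 and Tnfaip2, a further 3 called genes were detected in all silica rats and in no air rat. The homeobox factor gene Nkx2-8 was at least 1.77-fold higher (adjusted p = 6.72e-07), Tfec, a transcription factor of macrophages, at least 1.32-fold (adjusted p = 0.000639) and the olfactory receptor gene Or4k36 at least 1.16-fold (adjusted p = 0.00386). These bounds also rest on the background used here. With the background from all probes the log2 changes were 0.10 for Nkx2-8, 0.04 for Tfec and 0.02 for Or4k36. The bounds of Tnfaip2, Tfec and Or4k36 lay at or near their fitted log2 changes of 0.54, 0.41 and 0.21, so smaller folds are possible. Dlk1 was the reverse case. Among the 3525 detected probes with no gene symbol, which were fitted apart, 175 were higher (4.96%) and 143 lower (4.06%).

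The 6-week calls were then set beside those at 3 and 12 weeks, which used other rats for both silica and air but the same estimate of spread. Of the 799 genes higher at 6 weeks, 465 were also called higher at 3 weeks (58.2% of the 6-week genes and 68.2% of the 682 at 3 weeks, themselves 7.51% of genes tested). At 12 weeks 580 of them were called higher (72.6% of the 6-week genes and 54.7% of the 1061 at 12 weeks, 11.7% of genes tested). Of the falls, 282 of the 772 were called lower at 3 weeks (36.5%, and 51.1% of the 552, 6.08% of genes tested) and 457 at 12 weeks (59.2%, and 35.4% of the 1290, 14.2% of genes tested). The difference between these shares was not tested. At both other times 387 of the 799 (48.4%) were called higher and 209 of the 772 (27.1%) lower. Of the 117 genes that rose by 1.5-fold or more at 6 weeks, 109 (93.2%) were called higher at both other times, and of the 15 that fell by that much, 10 (66.7%) were called lower at both.

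A direct test of the difference singled out few genes. The silica effect was larger at 6 than at 3 weeks in 6 genes (0.0661% of those tested) and smaller in 1 (0.011%). Cxcl6 had fitted changes of 1.39 ± 0.19, 3.52 ± 0.19 and 2.42 ± 0.19 at 3, 6 and 12 weeks, and the difference between 6 and 3 weeks was 2.14 ± 0.27 (adjusted p = 3.96e-05). Its air rats at 6 weeks were at background, so these fitted values depend on the offset, as do those of Tnfaip2, Dmkn and Lpo below. The 6-week changes of Rnase9, Stra6l and Nfkbiz were also smaller with an offset of 50. Rnase9 had changes of 1.79 ± 0.10, 2.66 ± 0.10 and 2.06 ± 0.10 at 3, 6 and 12 weeks (difference 6 minus 3 weeks 0.87 ± 0.14, adjusted p = 0.00133). Stra6l, a retinol transporter related to Stra6, changed by 0.48 ± 0.12, 1.31 ± 0.12 and 1.02 ± 0.12 (adjusted p of the difference 0.0243). At 6 weeks the change of Stra6l was 0.21 with the background from all probes. Enpp2 changed by 0.32 ± 0.05, 0.70 ± 0.05 and 0.62 ± 0.05 (adjusted p of the difference 0.00973). The difference between 6 and 3 weeks was not called under median scaling for Rnase9 (adjusted p = 0.544) and Enpp2 (0.931), under cyclic loess for Rnase9 (0.10), in the authors' log2 values for Enpp2 (0.0876) and Tnfaip2 (0.0986), or with the replicate block for Enpp2 (0.110), Stra6l (0.119) and Tnfaip2 (0.141). The call of Stra6l was also lost without silica replicate 2, 3 or 5 or air replicate 5 at 3 weeks, and that of Tnfaip2 without silica replicate 2 or 5, air replicate 5, or air replicate 5 at 3 weeks, with adjusted p from 0.0514 to 0.0765.

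The NF-kB regulators Nfkbiz and Tnfaip2 were also among the 6 genes. Nfkbiz had changes of 0.07 ± 0.07, 0.64 ± 0.07 and 0.13 ± 0.07 at 3, 6 and 12 weeks, and was called at 6 weeks alone (6 minus 3 weeks 0.58 ± 0.10, adjusted p = 0.00612). The 12-week effect of Nfkbiz was not called as different from the 6-week effect (adjusted p = 0.056), but this depended on the processing. The difference was called under median scaling (0.0236), cyclic loess (0.0431) and array weights (0.000222). It was also called with a trended robust fit (0.0473), an offset of 50 (0.030) and the replicate block (0.0469). Leaving out silica replicate 1 (0.037), silica replicate 2 (0.0394) or air replicate 6 (0.0364) also gave a call. Leaving out any other single rat of the 6-week groups gave none. The difference was not called with the background from all probes (0.0903), no background correction (0.268) or the authors' log2 values (0.0711). Nor was it called with no filter on dim probes (0.0637) or the mean of detected probes (0.0559). Tnfaip2 changed by 0.05 ± 0.07, 0.54 ± 0.07 and 0.26 ± 0.07 as fitted values (6 minus 3 weeks 0.49 ± 0.10, adjusted p = 0.0296). Neither of these differences between 6 and 3 weeks was called with the background from all probes (adjusted p = 0.121 for Nfkbiz and 0.158 for Tnfaip2) or with no background correction (0.292 and 0.220). In the other direction Dmkn, the secreted epithelial protein dermokine, changed by 1.18 ± 0.10 at 3 weeks, 0.27 ± 0.10 at 6 weeks and 0.32 ± 0.10 at 12 weeks (6 minus 3 weeks -0.91 ± 0.14, adjusted p = 0.00116). At 6 weeks Dmkn was detected on 3 of 6 silica arrays, against 0 of 6 air arrays. Between 12 and 6 weeks 1 gene differed upward (0.011%) and none downward (0%). This was Lpo, lactoperoxidase of airway secretions, which was detected in none of the 12 rats at 6 weeks and had a fitted change of 1.72 ± 0.17 at 12 weeks (12 minus 6 weeks 1.56 ± 0.24, adjusted p = 0.00155). With the background from all probes that difference was not called (adjusted p = 0.0527). Counts of these differences moved with the processing, from 4 to 13 for 6 minus 3 weeks and from 1 to 47 for 12 minus 6 weeks.

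**Figure D5:**
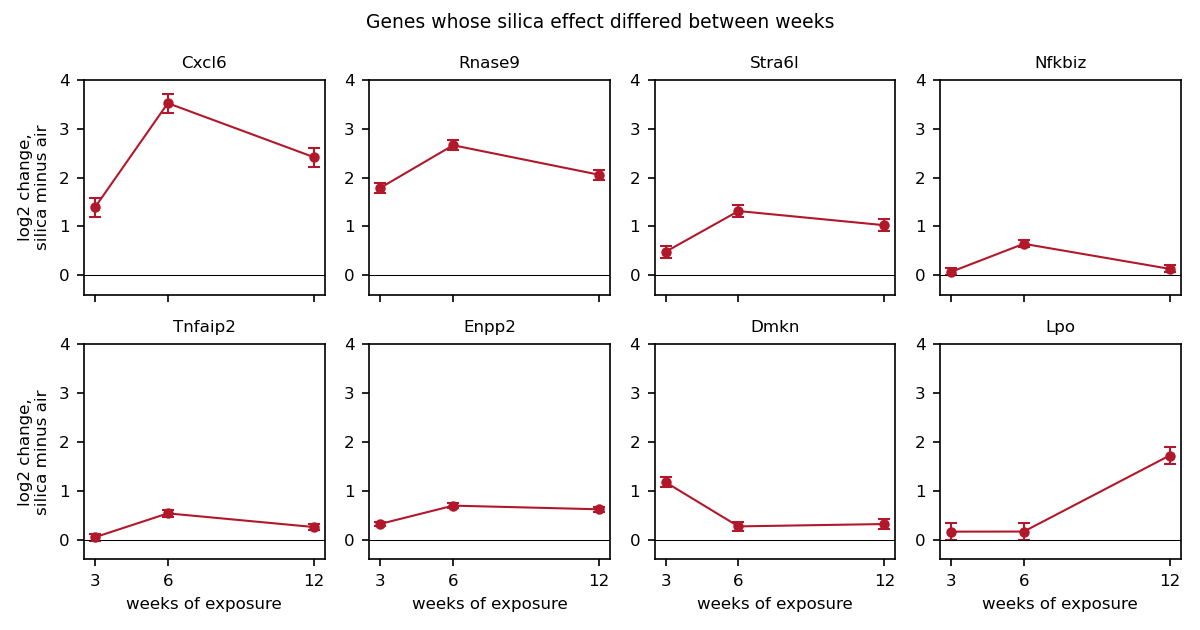
Fitted log2 change (silica minus air) at 3, 6 and 12 weeks of exposure for the 8 genes whose silica effect differed between 6 and 3 or between 12 and 6 weeks. Points are estimates and bars the SE (n = 6 per group), the estimates of Cxcl6, Rnase9, Stra6l, Nfkbiz, Tnfaip2 and Enpp2 are larger at 6 than at 3 weeks, that of Dmkn is smaller, and that of Lpo is larger at 12 than at 6 weeks.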

How the data were processed

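Lung RNA (375 ng a sample) was hybridised to Illumina rat BeadChips, 1 array a rat, per the labels' protocols. The authors deposited a linear intensity and a detection p-value for each of 21792 probes, and a table of log2 values made with BeadStudio, lumi and limma, per the submitters' processing notes. The exact steps behind the deposited log2 values are not given in the sources used here, so they served as an alternative. All columns matched a sample (0 did not).

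Intensities were background-corrected and quantile-normalised by neqc (limma 3.58.1 in R 4.3.3, offset 16). Its background was estimated from the detection p-values, leaving out 588 probes (179 tested genes) whose p-values do not follow the steps of the others. A gene was tested through the brightest of its probes that had a detection p under 0.05 on at least 6 arrays. One limma model was fitted to 36 arrays with 6 group means and 30 residual degrees of freedom. Symbols were found for 13388 probes (13315 genes), and 8404 had none. Where a whole group was below background, the fold is a bound against the lowest detected signal, or a rat's own level where that was higher. Arrays give no counts, so the number of arrays limits the precision. The script was tested on simulated data.

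Named genes were the called members of 52 gene lists with the largest changes, the largest changes over all genes, genes detected in 1 group and genes whose silica effect differed between weeks. A further part of the rule, the highest mean level, was not used, because levels of different probes are not compared. Other genes named, mainly members that were not called, were chosen after their values were seen. The comparison and lists were chosen with earlier results of these data known. Alternatives were another background, normalisation, filter, offset, weighting and model, and leaving out each of the 12 rats of the 6-week groups in turn and, chosen after seeing the data, 1 rat of the 3-week and 1 of the 12-week groups.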

Additional observations from a re-analysis of the deposited data

Results flagged for a closer look

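One rat stood apart from the other 5 of its group in 20 of the 372 groups examined (5.38%), a rate close to the 1 in 20 that chance gives. Silica replicate 6 was low for Adora2b (6.87), Lpl (13.32) and Plet1 (13.19) and high for Col15a1 (9.29) and Ms4a1 (6.68). Among other silica rats, replicate 1 was high for Rrm2 (7.85), replicate 2 for Tnfaip2 (5.57) and replicate 3 for Scgb1a1 (14.56), and replicate 5 was low for Tmem45b (6.41). Air replicate 6 was low for Alox5ap (8.04), Ccnb2 (7.51), Cdk1 (7.04) and Mmp14 (9.95). Air replicate 4 was high for Cxcl17 (11.21), Cyp4b1 (12.51) and Lcn2 (7.65) and low for Gbp5 (6.24). Air replicate 5 was low for Cd83 (10.38), and air replicate 2 was low for Scgb1a1 (14.30) and high for Xcr1 (5.17). These values are log2 levels.

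The silica effect differed between weeks, by limma's test of the difference, in 8 genes. Between 6 and 3 weeks the difference was 2.14 for Cxcl6, 0.87 for Rnase9, 0.84 for Stra6l, 0.58 for Nfkbiz, 0.49 for Tnfaip2, 0.37 for Enpp2 and -0.91 for Dmkn. Between 12 and 6 weeks it was 1.56 for Lpo. The values of Cxcl6, Tnfaip2, Dmkn and Lpo are fitted against groups below background at 6 weeks and depend on the offset. With an offset of 50 the 6-week changes of Rnase9, Stra6l and Nfkbiz were smaller too, at 2.02, 0.86 and 0.33. That of Enpp2 was 0.69.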

How the results depend on the processing

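The counts of genes higher and lower at 6 weeks moved most under median scaling, which called 487 higher and 205 lower, and the cause was not tested. Genes higher by 1.5-fold or more numbered 77 when all probes set the background and 61 on the authors' log2 scale, and those lower by as much 5, 9, 8, 9, 2 and 7 with the background from all probes, no background correction, median scaling, cyclic loess, the authors' log2 values and an offset of 50. The difference between 6 and 3 weeks was called in 13 genes with the background from all probes, 11 with array weights and 4 with the replicate block. That between 12 and 6 weeks was called in 27, 2, 3, 9, 47, 15, 5 and 2 genes with the background from all probes, median scaling, cyclic loess, the authors' log2 values, array weights, a trended robust fit, an offset of 50 and the replicate block. Without 1 rat of the 6-week groups the counts ran from 668 to 811 higher, 595 to 815 lower, 109 to 135 higher and 10 to 19 lower by 1.5-fold or more, 5 to 9 for 6 minus 3 weeks and 1 to 9 for 12 minus 6 weeks, which was 9 without silica replicate 1, 4 without silica replicate 6 and 2 without silica replicate 2, silica replicate 4 or air replicate 6. In alternatives chosen after seeing the data, it was 16 without air replicate 5 at 3 weeks and 11 without silica replicate 3 at 12 weeks, and the count for 6 minus 3 weeks was 5 and 10. Same-numbered silica and air rats correlated by -0.272 to 0.444. For silica replicates 1 and 6 the closest air rat had the same number. The labels name no chip, so whether same-numbered rats shared one cannot be told. No named gene changed direction while called. Signal near background limits the dim genes.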
